A study of Mus musculus with 8 samples.

Results

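The integrins and adhesion receptors described here are 10 genes, chosen by name from the 45232 gene rows of the deposited expression table: Itgae, Itgb7, Itga4, Itgb1, Itgav, Itgb8, Itgal, Itgb2, Cd44 and Selplg. Their levels were read as TPM, a share of all transcripts in a library corrected for gene length. T cells positive for CD4 and CD25, surface proteins that regulatory T cells (Tregs) carry together, were sorted from spleen or from visceral adipose tissue of C57BL/6 mice. The mice were wild type (WT) or carried the genotype that the labels call Id2 CKO and, in titles, KO. Each of the 4 groups (WT adipose, KO adipose, WT spleen, KO spleen) held 2 libraries, numbered 2 and 3. The sources used here do not give the promoter driving any Cre recombinase, the age of the mice or any pooling. Each library was made from a minimum of 500 sorted cells with an ultra-low-input cDNA kit. The labels do not tie library numbers to individual mice, and p-values therefore reflect only the spread among these libraries, part of which may be technical. Depth is unknown because the table holds no counts.

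Integrins are pairs of an alpha and a beta chain that let a T cell hold on to other cells and to matrix, and they bind firmly only after signals inside the cell have switched them on. Itgb7 encodes beta 7, which pairs with alpha 4 (Itga4) to bind MAdCAM-1 on gut vessels and with alpha E (Itgae, CD103) to bind E-cadherin on epithelium. Beta 1 (Itgb1) pairs with many alpha chains, alpha 4 among them, to bind VCAM-1 and matrix. Alpha v beta 8 (Itgav, Itgb8) releases active TGF-beta from its latent complex and is used in this way by Tregs and dendritic cells. Alpha L beta 2 (Itgal, Itgb2) is LFA-1, the receptor for ICAM-1. CD44 binds hyaluronan and marks T cells that have met antigen, and Selplg encodes PSGL-1, the protein that carries sugar ligands for selectins and starts rolling on vessel walls.

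The libraries differed in make-up, and this touches every comparison below. The targeted gene itself, Id2, measured 2249 and 3679 TPM in WT adipose libraries and 1499 and 1298 TPM in KO adipose libraries, with 274 and 346 TPM in WT spleen and 72.1 and 265 TPM in KO spleen libraries. The summed level of 11 T cell core genes was 4339 TPM in KO adipose library 3 and 8466 to 12857 TPM in the other 7 libraries. In KO adipose library 3 the summed level of 11 macrophage and monocyte genes was 11200 TPM with none of them at 0, against 9.41 to 21.0 TPM with 4 to 6 of them at 0 in the other 3 adipose libraries and 13.3 to 615 TPM in spleen. The summed level of 8 fibroblast and mesothelium genes was 3481 TPM in that library and 730 TPM in KO adipose library 2, against 0.12 to 4.76 TPM in the other 6. That of 5 erythroid genes was 37.0, 2668, 24599 and 41287 TPM in adipose libraries (WT 2, WT 3, KO 2, KO 3). In spleen it was 10739, 26957, 785 and 63217 TPM in the same order. That of 6 adipocyte genes was 3.96, 2018, 14.3 and 13805 TPM in adipose libraries and 1.03 to 6.35 TPM in spleen. Fabp4 alone gave 1991 TPM of it in WT adipose library 3 and 13591 TPM in KO adipose library 3. Foxp3, which defines Tregs, stood at 7.40 TPM in KO adipose library 2 and 8.27 TPM in KO spleen library 2, against 93.5 to 266 TPM elsewhere. The part of these differences in the results was not tested except where a value without a library is given.

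All 10 members had a value above 0 in every library, and all 10 passed the filter on low values of 1 TPM in at least 2 libraries. Itgb8 passed only through spleen, where 4 of 4 libraries reached 1 TPM against 1 of 4 in adipose tissue, so its high spleen values decided its entry and its test is no independent support for the difference. The other 9 reached it in all 8 libraries. Across members the levels per transcript length spanned several orders of magnitude. Selplg ranked first in all 8 libraries, between 201 and 1874 TPM. Itgb8 ranked last in 7 of 8 libraries and lay between 0.0109 and 6.08 TPM. Itgae and Itgav were also low, at 2.55 to 26.8 TPM and 3.88 to 11.6 TPM, each below Itgb7, Itgb1 and Itgb2 in every library.

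**Figure D1:**
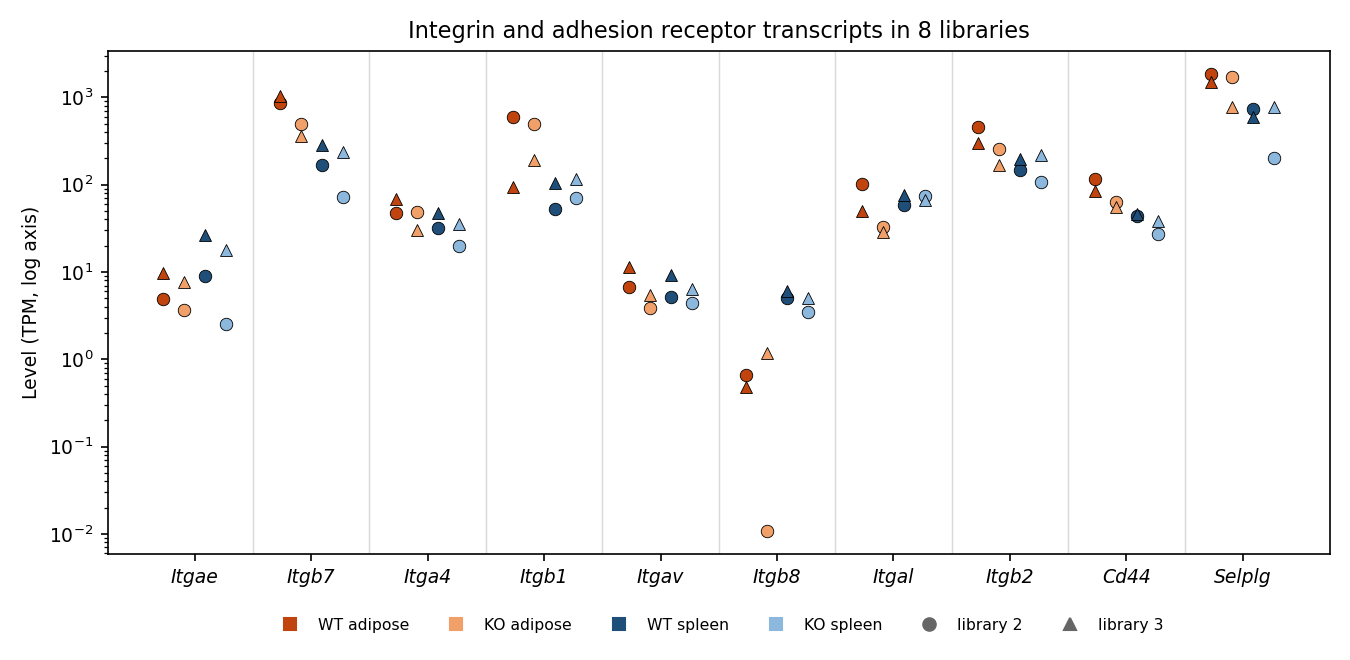
Level of each member in every library in TPM on a log axis, with circles for library 2, triangles for library 3 and colour for the group. Itgb7, Cd44 and Selplg lie higher in all 4 adipose libraries than in all 4 spleen libraries, and Itgb8 lies lower.

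The first question was how the adhesion receptors of these sorted cells differ between adipose tissue and spleen. Differences were tested on log2(TPM + 1) with limma across 13376 genes, with Benjamini-Hochberg adjustment and a threshold of 0.05, and a fold on this scale understates the change of low genes. In the mean of both genotypes 2 of the 10 members passed: Itgb7 rose in adipose tissue and Itgb8, which entered through its spleen values, fell. Across all genes tested in that comparison 3.06% passed (2.33% higher and 0.725% lower in adipose tissue), which is 312 genes higher and 97 lower. With quantile normalization the split was 343 and 267, and with libraries scaled to a common T cell core sum it was 132 and 13. The log2 fold change of the 10 members had a median of 0.65 with 7 positive, against a median of 0.24 with 63.8% positive over all genes tested. In these bulk libraries fewer cells of a type and less RNA per cell cannot be told apart, and neither can the tissue and its handling before the sort. At an unadjusted p under 0.05 the count of members was 6, with 22.6% of all genes. Without KO adipose library 3 and KO spleen library 2 no member passed with limma and 5 had an unadjusted p under 0.05, with folds of 1.59 for Itgb7 (adjusted p = 0.143) and -2.33 for Itgb8 (0.125). Without both KO libraries numbered 2, those low in Foxp3, again no member passed and 4 had an unadjusted p under 0.05, with folds of 1.36 (0.117) and -1.77 (0.111).

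Itgb7 was at 855 and 1030 TPM in WT adipose libraries, 501 and 362 TPM in KO adipose libraries, 170 and 286 TPM in WT spleen libraries and 73.1 and 235 TPM in KO spleen libraries. All 4 adipose libraries lay above all 4 spleen libraries. The log2 fold change of adipose tissue against spleen was 1.89 (SE 0.38, limma adjusted p = 0.0427). Within matched library numbers Itgb7 was higher in adipose tissue in all 4 pairs, by 2.33 and 1.85 (log2) in WT and by 2.76 and 0.62 in KO. The call for Itgb7 was lost without any 1 of the 4 adipose libraries, the 2 WT spleen libraries or KO spleen library 2 (adjusted p from 0.075 to 0.179 over these 7 fits), while its fold stayed between 1.47 and 2.31 over all 8 such fits. It was also lost with a pseudocount of 5 (adjusted p = 0.0514), without the filter (0.139) and without the variance trend (0.0757).

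The partners of beta 7 did not follow it past the test. Itga4 was at 47.5 and 68.5 TPM in WT adipose, 49.2 and 30.4 TPM in KO adipose, 32.1 and 47.5 TPM in WT spleen and 19.9 and 35.7 TPM in KO spleen libraries. The groups overlapped between tissues, with a log2 fold change of 0.53 (SE 0.32, limma adjusted p = 0.351). Itgae was at 4.88 and 9.69 TPM in WT adipose, 3.69 and 7.72 TPM in KO adipose, 8.92 and 26.8 TPM in WT spleen and 2.55 and 18.0 TPM in KO spleen libraries. The tissues overlapped, and library 3 was higher than library 2 in all 4 groups, by 0.86 to 2.42 (log2). Between tissues the log2 fold change of Itgae was -0.71 (SE 0.63, limma adjusted p = 0.522).

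The ratio of Itgb7 to each of its partner chains was higher in every adipose library than in every spleen library. For each transcript of Itga4 there were 18.0, 15.1, 10.2 and 11.9 of Itgb7 in the adipose libraries (WT 2, WT 3, KO 2, KO 3) and 5.29, 6.02, 3.67 and 6.58 in the spleen libraries in the same order. For each transcript of Itgae there were 46.9 to 175 of Itgb7 in adipose tissue and 10.7 to 28.6 in spleen. As Itga4 and Itgae overlapped between tissues and Itgb7 did not, these ratios in large part restate the Itgb7 values.

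Itgb8, whose product with alpha v activates latent TGF-beta, went the other way. Its level was 0.654 and 0.485 TPM in WT adipose, 0.0109 and 1.18 TPM in KO adipose, 5.05 and 6.08 TPM in WT spleen and 3.47 and 5.08 TPM in KO spleen libraries. All 4 adipose libraries lay below all 4 spleen libraries. The log2 fold change was -1.94 (SE 0.41, limma adjusted p = 0.0489), and matched library numbers gave -1.87 and -2.25 in WT and -2.14 and -1.48 in KO. The size depends on the pseudocount because the values are low: it was -3.30 with a pseudocount of 0.1 (adjusted p = 0.0887) and -0.83 with a pseudocount of 5 (adjusted p = 0.0501), neither past the threshold. The call for Itgb8 was also lost without the filter (0.157), with a filter of 5 TPM (0.0799), with scaling to the T cell core sum (0.244), and without any 1 of the 2 WT adipose libraries or the 4 spleen libraries (0.0821 to 0.178).

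Markers of dendritic cells, B cells and Tregs were read beside Itgb8, since dendritic cells and Tregs use this chain. The summed level of the 8 dendritic cell genes was 618, 187, 182 and 62.9 TPM in the spleen libraries (WT 2, WT 3, KO 2, KO 3). In the adipose libraries it was 57.6, 21.7, 41.9 and 1751 TPM. H2-Ab1 alone gave 617, 184, 181 and 61.4 TPM in spleen and 53.2, 6.22, 33.0 and 1564 TPM in adipose tissue. Xcr1, which entered through adipose tissue, was at 2.97 to 9.81 TPM there and 0.0266 to 0.678 TPM in spleen. Clec9a and Cd209a, at most 0.269 and 0.149 TPM in spleen, also entered through adipose tissue. Of 5 dendritic cell genes tested 4 had a positive tissue fold and 1 passed, higher in adipose tissue. For the genes that entered through adipose tissue neither the positive sign nor a call is independent support. Over all genes 63.8% were positive and 2.33% passed as higher. The summed level of the 6 B cell genes was 82.4 to 434 TPM in spleen and 12.6 to 56.1 TPM in adipose tissue. KO adipose library 3 had the highest dendritic cell sum and the highest Itgb8 of the adipose libraries, and KO spleen library 3 had the lowest spleen dendritic cell sum with an Itgb8 of 5.08 TPM. Treg genes had lower values in adipose tissue as well, while 63.8% of all genes had a positive tissue fold and 0.725% passed as lower. All 7 of the Treg list had a negative tissue fold (median -0.68), and 1 passed. That gene was Ikzf2 (Helios), at 34.8 to 43.2 TPM in adipose tissue and 73.5 to 161 TPM in spleen (log2 fold change -1.59, SE 0.28, limma adjusted p = 0.0309). The summed level of the Treg list overlapped, at 994 to 1961 TPM in adipose tissue and 1670 to 2330 TPM in spleen. The part of any of these cell types in the Itgb8 difference was not tested.

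The alpha chain of this pair showed no such difference. Itgav was at 6.82 and 11.6 TPM in WT adipose, 3.88 and 5.41 TPM in KO adipose, 5.19 and 9.18 TPM in WT spleen and 4.38 and 6.45 TPM in KO spleen libraries. The tissues overlapped, and the log2 fold change of 0.07 (SE 0.39, limma adjusted p = 0.932) took the opposite sign under quantile normalization (-0.30). For each transcript of Itgav there were 0.663 to 0.972 of Itgb8 in spleen and 0.0028 to 0.217 in adipose tissue, with no overlap. As Itgav overlapped between tissues, this ratio restates the Itgb8 values, which entered through spleen. Its low end rests on an Itgb8 of 0.0109 TPM in KO adipose library 2. Of 8 genes of the latent TGF-beta list 6 were tested, 5 had a positive tissue fold (median 1.18) and none passed. Over all genes tested 63.8% were positive. Tgfb3 and Ltbp3, at most 0.335 and 0.436 TPM in spleen, entered through adipose tissue, so their positive sign is no independent support. Nrros, which holds latent TGF-beta on the cell surface, was at 78.0 to 127 TPM in adipose tissue and 10.8 to 40.0 TPM in spleen (limma adjusted p = 0.0507). Lrrc32 (GARP), which does so on Tregs, was at 12.8, 7.49, 1.50 and 24.6 TPM in adipose tissue and 24.9 to 58.2 TPM in spleen (limma adjusted p = 0.123).

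**Figure D2:**
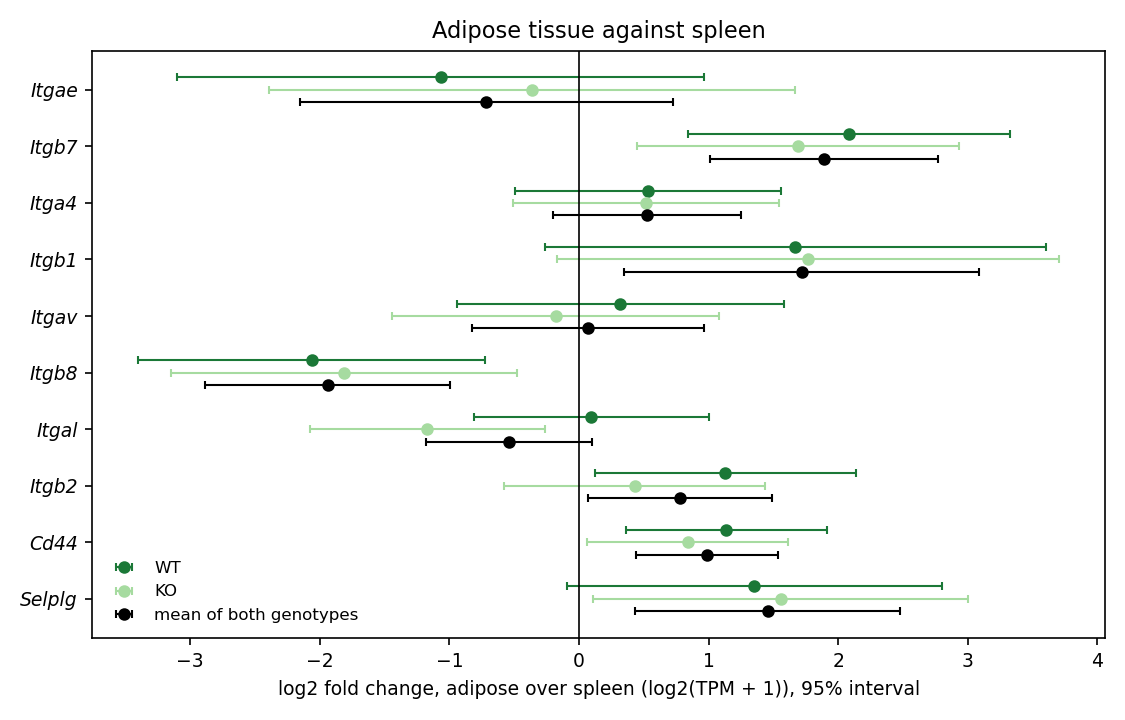
Log2 fold change of adipose tissue against spleen for each member on the log2(TPM + 1) scale, in WT, in KO and in the mean of both, with bars for the 95% interval. Itgb7 at 1.89 and Itgb8 at -1.94 in the mean of both genotypes are the values past the threshold.

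The 250 bases upstream of the RefSeq starts of Itgb7 and Itgb8 are printed because these are the 2 members that passed a test, in opposite directions. ID2 pairs with E proteins and keeps them from DNA, and E proteins bind the E-box, written CANNTG, a motif whose class reads the same on both strands. E-box letters are in capitals, the sense strand is shown 5′ to 3′, and positions are those of GRCm38.p6, a later build than the mm9 used for the TPM values. Itgb7 lies on the minus strand with its window at chr15:102231936-102232185, and Itgb8 on the minus strand with its window at chr12:119238277-119238526.
Itgb7: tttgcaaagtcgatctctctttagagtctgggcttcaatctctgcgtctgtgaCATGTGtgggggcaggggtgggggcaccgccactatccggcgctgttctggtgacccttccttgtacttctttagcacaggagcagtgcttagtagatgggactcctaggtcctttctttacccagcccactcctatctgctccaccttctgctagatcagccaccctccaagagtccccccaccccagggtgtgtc
Itgb8: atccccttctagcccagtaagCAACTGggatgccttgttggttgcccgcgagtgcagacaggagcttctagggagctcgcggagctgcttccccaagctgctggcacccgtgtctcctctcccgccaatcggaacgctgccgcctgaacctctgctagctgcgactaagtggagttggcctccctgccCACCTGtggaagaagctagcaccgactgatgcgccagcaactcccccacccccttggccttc
The Itgb7 window held 1 match and the Itgb8 window 2. Of the 10 members 6 were in the promoter table, and Itga4 was the other with a match, with none in the windows of Itgb1, Itgav and Cd44. Of all 32851 windows of this length 66.2% held at least 1 match and 31.8% at least 2, so the motif is common and its presence here is a description only.

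Itgb1, the chain shared by many matrix receptors, differed widely between libraries of one group. It was at 598 and 94.0 TPM in WT adipose, 503 and 193 TPM in KO adipose, 52.3 and 105 TPM in WT spleen and 70.4 and 117 TPM in KO spleen libraries. The 2 adipose libraries numbered 2 were far above the rest, whereas WT adipose library 3 lay within the range of spleen. Library 3 minus library 2 was -2.66 and -1.38 (log2) in WT and KO adipose tissue and 0.99 and 0.72 in WT and KO spleen. The tissue fold of 1.72 (SE 0.60, limma adjusted p = 0.146) did not pass the test.

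Neither chain of LFA-1 passed the tissue test. Itgb2 was at 463 and 297 TPM in WT adipose, 257 and 166 TPM in KO adipose, 146 and 195 TPM in WT spleen and 108 and 217 TPM in KO spleen libraries. The WT tissues did not overlap and the KO tissues did. The log2 fold change of Itgb2 was 0.78 (SE 0.31, limma adjusted p = 0.189).

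Itgal was at 101 and 50.6 TPM in WT adipose, 32.4 and 29.0 TPM in KO adipose, 58.8 and 76.3 TPM in WT spleen and 73.7 and 66.9 TPM in KO spleen libraries. Only the KO adipose libraries stood apart, below all 6 others. The log2 fold change of Itgal between tissues was -0.54 (SE 0.28, limma adjusted p = 0.289). For each transcript of Itgal there were 4.58, 5.86, 7.94 and 5.74 of Itgb2 in adipose tissue and 2.48, 2.56, 1.47 and 3.25 in spleen (WT 2, WT 3, KO 2, KO 3), with no overlap. Macrophages also express Itgb2, and their genes were high in KO adipose library 3; their part in these ratios was not tested.

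Cd44 was at 115 and 84.7 TPM in WT adipose, 62.8 and 55.3 TPM in KO adipose, 43.3 and 45.7 TPM in WT spleen and 27.6 and 38.3 TPM in KO spleen libraries. Among the members only Cd44 had no overlap between any neighbours in its order, which was WT adipose, KO adipose, WT spleen and KO spleen. The share of all genes tested with all 4 groups apart was not computed, so this order is a description only. The tissue fold of 0.99 (log2, SE 0.24) still missed the threshold, with a limma adjusted p of 0.0685 and a range of 0.0519 to 0.246 over the alternatives. In all 4 pairs of matched library numbers Cd44 was higher in adipose tissue, by 0.52 to 1.39 (log2).

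Selplg was at 1874 and 1512 TPM in WT adipose, 1718 and 782 TPM in KO adipose, 728 and 596 TPM in WT spleen and 201 and 771 TPM in KO spleen libraries. The tissues did not overlap, although KO adipose library 3 (782 TPM) and KO spleen library 3 (771 TPM) differed by only 0.02 (log2). The log2 fold change was 1.45 (SE 0.45, limma adjusted p = 0.116). Without KO spleen library 3 the call was made (log2 fold change 1.94, adjusted p = 0.0438). Scaled to a common T cell core sum, Selplg ranged from 1311 to 1744 TPM in adipose tissue and from 151 to 736 TPM in spleen.

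Of 8 genes for selectin ligand synthesis 7 were tested and all 7 were positive (median log2 fold change 1.69). The 3 that passed were enzymes that build the ligand on PSGL-1, and they rose in adipose tissue. Over all genes tested 63.8% were positive and 2.33% passed as higher. St3gal6, a sialyltransferase, was at 34.2, 22.7, 20.1 and 27.1 TPM in adipose libraries (WT 2, WT 3, KO 2, KO 3) and 2.66, 1.86, 1.61 and 2.97 TPM in spleen libraries. The tissues were far apart, with a log2 fold change of 3.04 (SE 0.36, limma adjusted p = 0.00733), and in KO alone St3gal6 also passed (2.92, SE 0.51, adjusted p = 0.043). In the mean of both genotypes the call was lost without WT spleen library 2 (adjusted p = 0.057), and in KO it was kept in 1 of the 8 fits without 1 library (adjusted p from 0.041 to 0.325). St3gal4, another sialyltransferase, was at 72.2, 82.9, 40.6 and 40.9 TPM in adipose tissue and 19.4, 22.3, 13.4 and 29.5 TPM in spleen libraries (1.42 on the log2 scale, SE 0.30, limma adjusted p = 0.0472). Fut7, the fucosyltransferase that completes the ligand, was at 12.0, 13.4, 17.4 and 11.1 TPM in adipose tissue and 4.58, 3.27, 2.28 and 3.87 TPM in spleen (1.69, SE 0.36, adjusted p = 0.0497). For both genes the tissues did not overlap. The call for Fut7 was lost without any 1 library (adjusted p from 0.0574 to 0.185), and that for St3gal4 was kept only without KO spleen library 3 (0.0281), with values up to 0.194 without the others.

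The remaining steps of the ligand did not pass the test. Tpst2, a tyrosine sulfotransferase that modifies PSGL-1, was at 104 to 236 TPM in adipose tissue and 30.5 to 83.1 TPM in spleen (limma adjusted p = 0.0788). The other tested genes of the list, chosen for printing after their values were seen, did not pass either. Gcnt1, which builds the core branch of the sugar, was at 5.05, 32.0, 3.29 and 12.8 TPM in adipose tissue and 0.842, 1.78, 0.619 and 1.78 TPM in spleen (adjusted p = 0.105). The tissues did not overlap for Tpst2 and Gcnt1. They did overlap for Tpst1, another tyrosine sulfotransferase, at 12.9, 40.6, 4.51 and 120 TPM in adipose tissue and 8.75, 5.52, 4.24 and 2.74 TPM in spleen (adjusted p = 0.215). B4galt1, a galactosyltransferase, overlapped as well, at 17.4 to 40.3 TPM in adipose tissue and 11.5 to 28.4 TPM in spleen (adjusted p = 0.405). Fut4, another fucosyltransferase, was at most 0.519 TPM and was not tested.

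**Figure D3:**
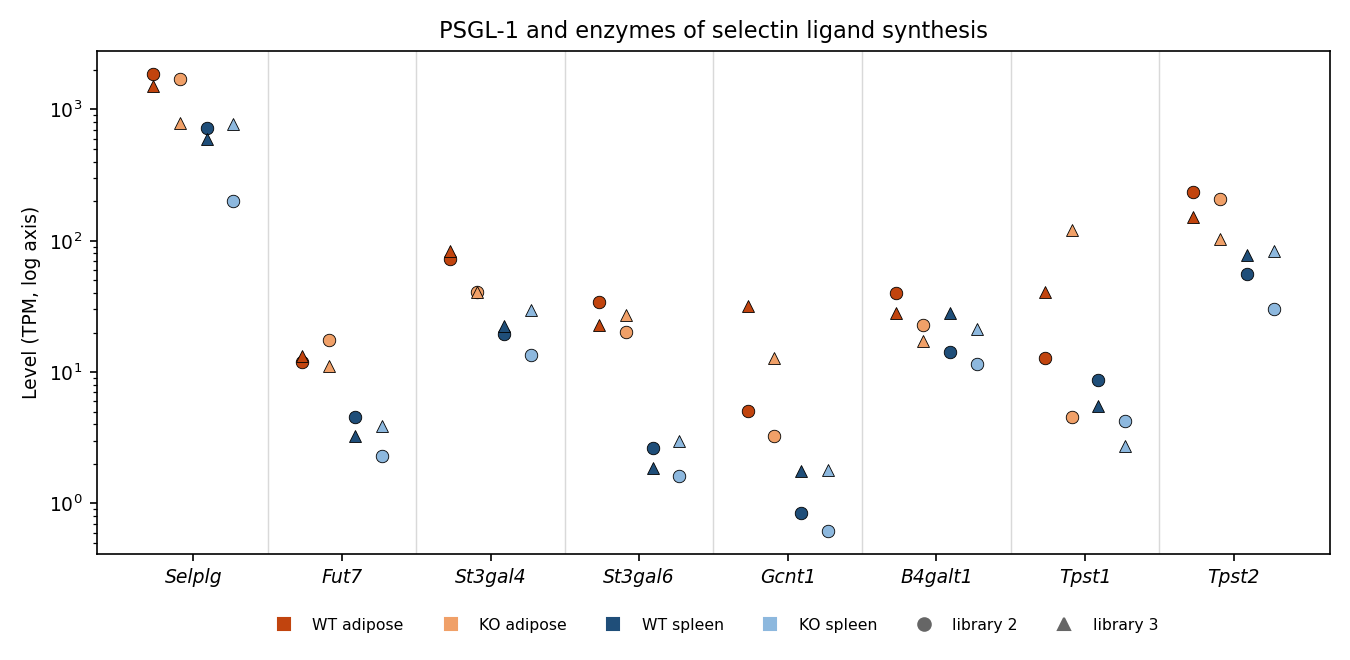
Level in TPM on a log axis of Selplg and of enzymes that build selectin ligands in every library, with circles for library 2, triangles for library 3 and colour for the group. St3gal6, St3gal4 and Fut7 lie higher in every adipose library than in every spleen library.

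The supply of beta chains as a whole differed more than that of alpha chains. The sum over 8 beta chain genes was 1936, 1452, 1279 and 742 TPM in adipose libraries (WT 2, WT 3, KO 2, KO 3) and 381, 600.4, 258 and 581 TPM in spleen libraries, with no overlap. The sum over 18 alpha chain genes was 185, 164, 103 and 155 TPM in adipose tissue and 129, 184, 112 and 145 TPM in spleen, with overlap. Itgb2 made up 20.1% to 23.9% of the beta sum in adipose tissue and 32.5% to 41.9% in spleen, and Itgb8 0.00085% to 0.159% against 0.874% to 1.34%. Itgb7 took the largest share in 6 of the 8 libraries. The exceptions were KO adipose library 2, where Itgb1 was level with it (39.3% against 39.2%), and KO spleen library 2, where Itgb2 led (41.9% against 28.3%). Of the other 7 alpha and 2 beta chains tested none passed; Itgb3 was at 12.2 to 26.6 TPM in adipose tissue and 3.00 to 7.18 TPM in spleen (limma adjusted p = 0.062).

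**Figure D4:**
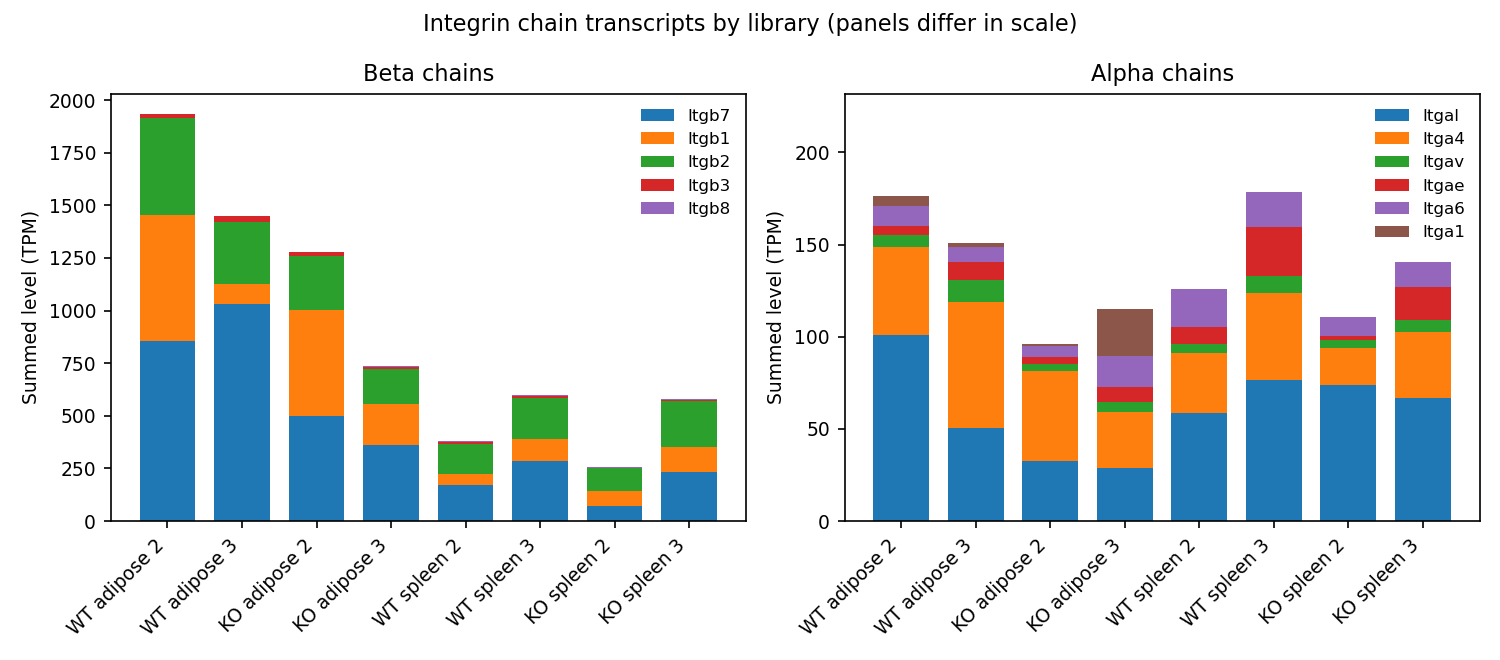
Stacked levels in TPM of the main beta chains and of the main alpha chains in every library, on panels with different scales. The beta stack is higher in every adipose library than in every spleen library, while the alpha stacks overlap.

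Other genes of adhesion were read from lists of related genes. Over all genes tested 63.8% had a positive tissue fold and 3.06% passed. Of 18 genes that switch integrins on from inside the cell 14 had a positive tissue fold (median 0.58) and 0 passed. Vcl in this list and F11r in the next entered through adipose tissue alone, with at most 0.577 and 0.515 TPM in spleen. Of 16 other leukocyte adhesion receptors 9 were positive (median 0.47) and 1 passed. That gene was Cd47, a partner of integrins and a signal against phagocytosis, at 416, 422, 268 and 224 TPM in adipose tissue and 191, 133, 118 and 135 TPM in spleen libraries (1.17 on the log2 scale, SE 0.22, limma adjusted p = 0.0338). Its tissues did not overlap. Without 1 library the adjusted p of Cd47 lay between 0.0437 and 0.146, and the call was kept in 2 of 8 such fits, those without KO adipose library 2 and without KO spleen library 3. Of 13 counter-ligands 5 were tested, 1 was positive and 0 passed.

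Within each genotype alone no member passed the tissue test. In WT the libraries of 5 members did not overlap between tissues (Itgb7, Itgb2, Cd44 and Selplg above, Itgb8 below), against 52.9% of all genes tested (37.8% above and 15.1% below), and 0.164% of all genes passed. In KO the libraries of 6 members did not overlap (Itgb7, Itgb1, Cd44 and Selplg above, Itgb8 and Itgal below), against 36.6% of all genes (22.1% above and 14.6% below), and 1.08% passed. At an unadjusted p under 0.05 the members numbered 4 in WT (13% of all genes) and 5 in KO (12.9% of all genes). Across both genotypes 3 of 10 members lay above in all adipose libraries (11.6% of all genes) and 1 below (4.66%), together 4 against 16.3%. With the library number as a block the genes passing were 78 in WT against 22 without it, 236 against 144 in KO and 885 against 409 in the mean of both. The fold of Itgb7 was 2.09 in WT and 1.69 in KO, that of Itgb8 -2.06 and -1.81, and that of Cd44 1.13 and 0.84. These WT and KO comparisons use separate libraries and share 1 estimate of the spread.

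The second question was whether the KO genotype changed these receptors in either tissue. In adipose tissue 0 of 10 members passed, against 0.284% of all genes tested. At an unadjusted p under 0.05 there was 1 member, with 6.97% of all genes. The sign was negative for 9 of 10 members with a median of -0.64, while all genes had a median of -0.27 with 31.9% positive. The libraries of 5 members lay lower in KO without overlap (Itgb7, Itgav, Itgal, Itgb2 and Cd44), against 27.5% of all genes tested. Itgal had the largest difference, -1.20 (log2, SE 0.39, 95% interval -2.11 to -0.29, unadjusted p = 0.0157, limma adjusted p = 0.526). Itgb7 differed by -1.14 (SE 0.54, adjusted p = 0.74), Itgb2 by -0.84 (SE 0.44, 0.748), Itgav by -0.82 (SE 0.55, 0.771) and Cd44 by -0.74 (SE 0.34, 0.74). The sum of T cell core genes was lowest in KO adipose library 3, and after scaling to a common T cell core sum each of these 5 overlapped between genotypes. That scaling multiplies all genes of a library alike, RNA of macrophages and fibroblasts included. The part of such cells in the scaled values was not tested. The folds under the scaling were -0.83 for Itgal, -0.77 for Itgb7, -0.48 for Itgav, -0.47 for Itgb2 and -0.37 for Cd44, all still negative. Itgal was then at 89.8 and 57.8 TPM in WT and 24.7 and 64.6 TPM in KO, and Itgb7 at 759 and 1177 TPM in WT and 382 and 808 TPM in KO. Cd44 was then at 102 and 96.8 TPM in WT and 47.9 and 123 TPM in KO.

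**Figure D5:**
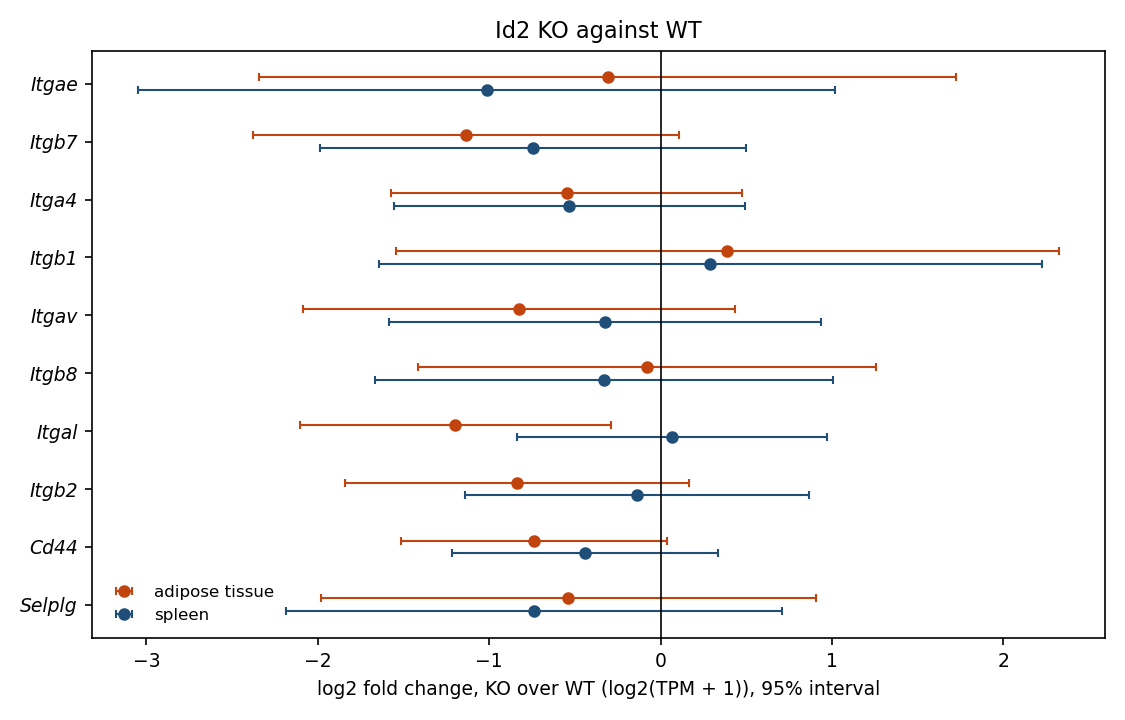
Log2 fold change of KO against WT for each member on the log2(TPM + 1) scale, in adipose tissue and in spleen, with bars for the 95% interval. The interval of Itgal in adipose tissue, -2.11 to -0.29, leaves out 0, and no adjusted p passes the threshold.

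In spleen 0 of 10 members and 0% of all genes tested passed with limma, none of the members and 64 of all genes (0.478%) had an unadjusted p under 0.05, and 8 of 10 members had a negative sign (median -0.38, against -0.12 for all genes). Only Cd44 did not overlap, at 43.3 and 45.7 TPM in WT against 27.6 and 38.3 TPM in KO (log2 fold change -0.44, SE 0.34, limma adjusted p = 1), against 13.9% of all genes lower without overlap. The 95% interval for Cd44 in spleen ran from -1.22 to 0.34 and for Itgb7 from -1.99 to 0.50, and both hold 0. Itgae, Itgb7, Itgav and Cd44 were lower in KO in all 4 pairs of matched tissue and library number. The share of all genes that did so was not computed. Of 13376 genes tested 9059 had a negative sign in adipose tissue and 8498 in spleen, so most genes leaned the same way. KO spleen library 2 had the lowest value of all 8 libraries for Itgae, Itgb7, Itga4, Itgb2, Cd44 and Selplg. The share of all genes lowest in that library was not computed, so this is a description only. Foxp3 was at 8.27 TPM in it and at 7.40 TPM in KO adipose library 2, and any link to these values was not tested.

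No member passed the test of genotype by tissue, in which 0.0299% of all genes passed, and none of the members and 3.06% of all genes had an unadjusted p under 0.05. Itgal came nearest. It differed between KO and WT by -1.20 (log2) in adipose tissue and by 0.07 in spleen, and the difference of these was -1.26 (SE 0.56, unadjusted p = 0.0525, limma adjusted p = 1). In KO adipose tissue Itgal was below KO spleen (-1.17, SE 0.39, limma adjusted p = 0.269), while in WT the tissues overlapped (0.09, SE 0.39, adjusted p = 0.931). Without 1 library the interaction of Itgal lay between -1.76 and -0.77.

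Genes whose pattern was most like the members that passed were found by the mean absolute difference of centred log2(TPM + 1) over the 8 libraries. For Itgb7 these were Rfng (0.186), Faah (0.187) and Il7r (0.194). Il7r, the alpha chain of the interleukin 7 receptor, was at 450 and 546 TPM in WT adipose, 415 and 212 TPM in KO adipose, 133 and 190 TPM in WT spleen and 41.6 and 149 TPM in KO spleen libraries. Il7r kept the same order of groups as Itgb7, which the choice by likeness over these libraries favours, so this order is no independent support. For Itgb8 the nearest were Rgs10 (0.133), Rel (0.161) and Rragd (0.177). Rel, which encodes the NF-kappaB subunit c-Rel, was at 6.36 and 3.90 TPM in WT adipose, 2.01 and 7.25 TPM in KO adipose, 21.1 and 26.9 TPM in WT spleen and 12.1 and 21.4 TPM in KO spleen libraries. All 8 libraries enter each of these measures, so they share depth and library make-up with the members.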

How the data were processed

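The deposited table holds TPM for 45232 genes in 8 libraries, a unit identified from the values, since all columns have the same sum. The submitters' processing notes name the build mm9. An aligner, a read counter and a gene annotation are not named in the sources used here. A TPM is a share, so abundant RNA of other cells lowers every other value in a library. The members and the lists of related genes were chosen with earlier results of these data known. TPM values were tested as log2(TPM + 1) with limma 3.58.1 in R 4.3.3, keeping the 13376 genes at 1 TPM or more in at least 2 libraries, in 1 fit of 4 groups with a variance trend and 4 residual degrees of freedom. The 6 contrasts were KO against WT in each tissue, adipose tissue against spleen in each genotype and in their mean, and the interaction. P-values were adjusted by Benjamini-Hochberg over all genes tested, with a threshold of 0.05. Tested on simulated data, the procedure recovered most changed genes, with a share of false calls above the nominal threshold, which bears on calls close to it.

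All 10 members are named. Of the related lists, every gene past the threshold in any contrast may be named. So may up to 4 genes a list with the smallest p in a described contrast, and genes whose values limit a count or sum. Macrophage, dendritic cell, B cell, fibroblast, erythroid, adipocyte, Treg and T cell lists serve as checks. Apart from the 8 genes of the selectin ligand list, 1 more gene once placed in it was taken out and is not reported here. The nearest genes of a member leave out clones, predicted genes, pseudogenes and receptor segments. Same-numbered libraries deviated together, with correlations of 0.128 to 0.382 over 6 pairs of groups, so the numbers were taken to pair the samples, and the fit with the number as a block was an alternative. This pairing comes from the data and from the headers' experiment numbers. Promoter sequences come from RefSeq (GRCm38.p6), where 6 of 10 members were matched. Alternatives were other pseudocounts, filters, scalings and weights, and fits without libraries.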

Additional observations from a re-analysis of the deposited data

How the results depend on the processing

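Of the members' counts of calls 103 of 118 were the same over the alternatives, and of the folds 608 of 705. The 15 weaker counts all fell in the tissue mean, the only contrast with a member called, which has 19 alternatives. In the other contrasts no member was called in the main fit or in any alternative, so their counts could only stay at 0. A fold counted as the same if it kept its sign and its side of the threshold. The count of 2 members in the tissue mean was 1 with a pseudocount of 0.1, a filter at 5 TPM or no variance trend, 0 with a pseudocount of 5, no filter, without both KO libraries numbered 2 or without KO adipose 3 and KO spleen 2, 1 with T cell core scaling, and 0 to 2 without 1 library. The last-named pair of libraries and the scaling were chosen after seeing the data. Leaving out 1 library leaves 1 in a group, assumed to vary like the others. The replicate block changed no member's call. Of 19 alternatives to the tissue mean, Itgb7 passed in 7, Itgb8 in 6, St3gal6 in 15, Cd47 in 8, St3gal4 in 5 and Fut7 in 3.

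Genes passing in KO against WT in adipose tissue (38) were 13 with a pseudocount of 0.1, 18 with a filter at 5 TPM, 72 with quantile normalization, 162 without both KO libraries numbered 2, 19 with T cell core scaling, 6 to 343 without 1 library, and with limma 0 without KO adipose 3 and KO spleen 2 (1885 at unadjusted p) or with only the groups compared (742). In WT tissues (22) they were 59 with a filter at 5 TPM, 7 without trend or with T cell core scaling, 219 with library weights, 78 with the replicate block, 0 to 39 without 1 library, and with limma 0 without filter (1961), without the KO libraries numbered 2 (2549), without KO adipose 3 and KO spleen 2 (2545) or with only these groups (2543). In KO tissues (144) they were 70 and 89 with pseudocounts of 0.1 and 5, 63 without filter, 231 with quantile normalization, 48 with weights, 236 with the block, 75 with T cell core scaling, 12 with only these groups, 1 to 663 without 1 library, and with limma 0 without the KO libraries numbered 2 (1627) or without KO adipose 3 and KO spleen 2 (1514). In the tissue mean (409) they were 21 without filter, 885 with the block, 145 with T cell core scaling, 24 to 911 without 1 library, and 0 without those pairs of libraries (2709 and 2463). For the interaction (4) they were 10 with quantile normalization or weights, 16 without trend, 0 to 177 without 1 library, and with limma 0 with a pseudocount of 0.1 (408), no filter (661), a filter at 5 TPM (246), the replicate block (661), T cell core scaling (250) or without those pairs (1083 and 1230).

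The cause of these shifts was not tested. Folds that took the other sign were Itgal in WT tissues (quantile normalization -0.36, without 1 library -0.40 to 0.59), Itgb2 in KO tissues (without the KO libraries numbered 2 -0.38, without 1 library -0.070 to 0.93) and Itgav in the tissue mean (quantile -0.30, without KO adipose 3 and KO spleen 2 -0.15, without 1 library -0.11 to 0.25). Over all genes the median fold of the tissue mean was 0.24, -0.053 with quantile normalization and 0.59 with T cell core scaling. With depth unknown, low values such as those of Itgb8 have no counting interval.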
